A study of Mus musculus with 8 samples.

Results

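The 8 long noncoding RNAs described here, Gas5, Snhg1, Snhg3, Snhg5, Snhg6, Snhg8, Snhg12 and Zfas1, are spliced transcripts that carry small nucleolar RNAs (snoRNAs) inside their introns. They were taken by name, a choice made with earlier results of these data known, from the 52636 genes of a count table of S0 cells, and all 8 were among the 17378 genes with enough counts to be tested. S0 cells are the least mature subset sorted from dissociated fetal liver, negative for a cocktail of lineage antibodies and low in CD71 and Ter119. RNAseq was carried out on 4 WT and 4 Vps13a/Vps13c double knockout (DKO) libraries at E12.5. All mice were on a C57BL/6J background. DKO embryos carried a deleted Vps13a allele, made by germline recombination with FLP and then β-actin-Cre, together with Vps13c-/-. They came from crosses of Vps13a+/-/Vps13c-/- parents. Such crosses yield no embryo that is WT at Vps13c, so litter and genotype cannot be told apart. Each library is treated as 1 embryo. Whether any of them share a litter is not stated, and the p-values measure only the spread between these libraries.

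Host RNAs of this kind serve as precursors. Their introns are cut out and trimmed to snoRNAs, which guide 2′-O-methylation (box C/D class) or pseudouridylation (box H/ACA class) of ribosomal RNA, or help to cleave its precursor. The joined exons are exported and contain only short open reading frames. Ribosomes engage them all the same, and several host RNAs, Gas5 among them, are known substrates of nonsense-mediated decay and accumulate when translation slows. Many hosts also begin with a 5′ terminal pyrimidine tract (TOP), the feature that places ribosomal protein mRNAs under control of mTOR and LARP1.

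The start regions are shown first, followed by the snoRNAs that define these genes as hosts. RefSeq (GRCm38.p6) gave a start region for 7 of the 8 genes, all but Snhg6. Within 20 bases on either side of the start, on the sense strand, 5 of 7 held a C followed only by C or T, at least 5 bases in all, against 52.2% of 27025 genes searched in the same way, 80.4% of 56 ribosomal protein genes and 9 of 13 other noncoding hosts. In 4 of 7 the tract began within 2 bases of an annotated start, against 8.6% of all genes, 21.4% of the ribosomal protein genes, 2 of 13 other noncoding hosts and 7.7% of 13 mRNAs of TOP translation factors, a window chosen after the sequences were seen. These shares are a description, and nothing particular to the hosts is drawn from them. The following stretches begin 30 bases before the start and run 5′ to 3′ on the sense strand, with the tract in capitals. Gas5 has 2 annotated starts and the downstream one is given. Zfas1 is shown as one of the 2 genes without such a tract.
Gas5 (chr1:161035136-161035195, plus strand): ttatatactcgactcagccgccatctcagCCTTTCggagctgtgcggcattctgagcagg
Snhg3 (chr4:132353657-132353716, minus strand): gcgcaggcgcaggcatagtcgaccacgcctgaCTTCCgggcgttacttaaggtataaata
Snhg8 (chr3:123508307-123508366, minus strand): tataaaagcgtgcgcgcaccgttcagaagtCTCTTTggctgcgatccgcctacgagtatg
Snhg12 (chr4:132308648-132308707, plus strand): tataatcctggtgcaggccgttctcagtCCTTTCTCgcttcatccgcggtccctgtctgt
Zfas1 (chr2:167062904-167062963, plus strand): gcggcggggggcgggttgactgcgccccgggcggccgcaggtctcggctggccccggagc

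The GENCODE M21 annotation (GRCm38) places 32 snoRNA genes inside the 8 hosts and on the same strand, of which 10 lie in Gas5, 8 in Snhg1, 5 in Snhg12, 3 in Zfas1, 2 each in Snhg3 and Snhg5, and 1 each in Snhg6 and Snhg8. A few entries are overlapping copies of 1 snoRNA, such as Snord80 in Gas5 and Snora16a in Snhg12. In 20 of the 32 a C box (TGATGA, beginning within the first 15 bases) and a D box (CTGA, beginning within the last 15) were found, 6 others longer than 110 bases had an ACA box beginning in the last 8, and 6 had neither spelling. The capitals below mark these boxes. Snord47 stands for the 23 genes listed at a count of 1 in every library, and Snord87 and Snora73b are the 2 with enough counts to be tested.
Snord47 (Gas5, chr1:161038082-161038158, plus strand): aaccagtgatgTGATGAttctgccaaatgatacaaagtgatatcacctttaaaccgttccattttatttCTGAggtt
Snord87 (Snhg6, chr1:9942463-9942549, minus strand): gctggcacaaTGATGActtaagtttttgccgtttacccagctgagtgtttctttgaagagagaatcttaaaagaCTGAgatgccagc
Snora73b (Snhg3, chr4:132352322-132352526, minus strand): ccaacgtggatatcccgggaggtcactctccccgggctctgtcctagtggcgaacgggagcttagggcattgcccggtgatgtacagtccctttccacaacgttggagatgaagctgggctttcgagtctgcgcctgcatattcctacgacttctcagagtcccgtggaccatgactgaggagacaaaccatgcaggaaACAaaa

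Total counts were between 42114489 and 50886469 in WT and between 36981439 and 42587815 in DKO. Among the targeted genes, Vps13a fell from a mean of 1943 ± 130 to 794 ± 194 normalized counts (SD, n = 4 WT and 4 DKO), without overlap of the groups. Vps13c, at 583 ± 74.9 and 816 ± 279, does not check its label, since the gene count does not show whether the deleted part was transcribed. The Y-linked gene Ddx3y had at least 2911 normalized counts in all 4 WT libraries and 2516 in DKO 3, but at most 41.0 in DKO 1, DKO 2 and DKO 4, so that sex was not balanced between genotypes. All 9 erythroid markers were detected, with Klf1 at 12312 ± 1724 in WT and 12795 ± 3376 in DKO. Genes of other cells were also present. The hepatoblast marker Afp stood at 305522 ± 45751 in WT. In the marker counts that follow, higher and lower mean an adjusted p under 0.05 in the test of the genotypes. Summed over their lists, 5 mesenchyme markers rose from between 1460.5 and 5065 in WT to between 11412 and 41466 in DKO, with 5 of 5 higher. The 8 myeloid markers fell from between 109272 and 144185 to between 6111 and 48862, with 6 of 8 lower. All 8 had negative log2 fold changes, without overlap of the groups. Hepatoblast markers summed to between 467597 and 652472 in WT and between 149936 and 559207 in DKO, and 0 of 7 passed the test. All 7 had negative log2 fold changes all the same (median -0.83), 4 of them without overlap of the groups. The endothelial sums were between 2250.0 and 2809 and between 1107 and 1691, with 1 of 5 lower and all 5 log2 fold changes negative. The erythroid sums were between 40381 and 82729 and between 31360.1 and 98364, with 2 of 9 higher, and those of 5 megakaryocyte markers between 45991 and 52175 and between 34940.3 and 106610, with none passing. Of all these markers only the endothelial gene Stab2 was at 0 in a library. The part of these differences in the results that follow was not tested, and in sorted bulk samples a change in the cells present and a change in RNA per cell cannot be told apart.

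Of the 8 host RNAs, 7 rose in DKO, 0 fell, and only Snhg3 did not pass the test. The increases of the 7 lay between log2 fold changes of 0.52 (Gas5, or 1.44-fold) and 1.14 (Snhg12), and in each of the 7 the lowest DKO library was above the highest WT library. Across all genes tested, 10.7% were higher and 10.8% lower in DKO at an adjusted p under 0.05 (edgeR quasi-likelihood test, Benjamini-Hochberg over all genes), and in 13.5% the lowest DKO library exceeded the highest WT library. Without WT 1, WT 2 or WT 4 the share of all genes that were higher was 4.74%, 5.63% and 5.26%, and 7 hosts rose each time. Upper-quartile scaling changed the balance over all genes, from 49.9% to 66.7% higher among those that passed, with 7 hosts higher under both. The median log2 fold change was 0.69 over the 8 hosts and 0.03 over all genes. Only Snhg12 also exceeded a log2 fold change of 1, as did 6.19% of all genes in that direction. With a covariate for the Ddx3y-positive libraries, the genotype difference rests on DKO 3 alone against WT, since no other DKO library was Ddx3y-positive. The log2 fold change of Snhg8 was then 0.70 and the median of the 8 hosts 0.78. Both were larger than without the covariate, but they rest on DKO 3 alone and do not make the rise of any host firmer.

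**Figure D1:**
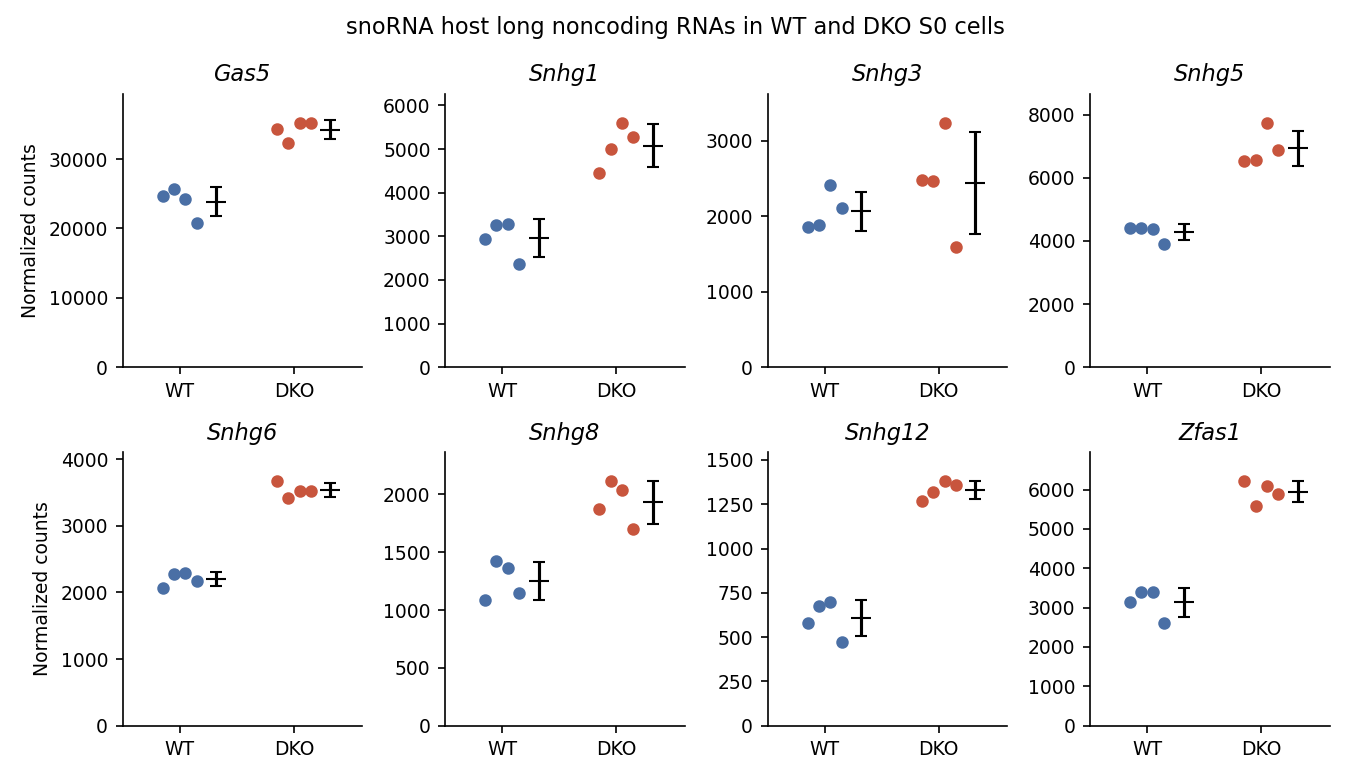
Normalized counts (vertical axes, linear from 0) of the 8 snoRNA host RNAs in the 4 WT (blue) and 4 DKO (red) libraries, 1 point per library in the order of their labels, with mean and SD in black. In every panel except that of Snhg3 the red points lie wholly above the blue ones.

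Gas5 (growth arrest specific 5; ENSMUSG00000053332.13, chromosome 1, 161034422 to 161038539, plus strand) was named for its accumulation in cells that stop dividing and hosts box C/D snoRNAs. The libraries WT 1 to WT 4 had 24706, 25735, 24183 and 20832 normalized counts, against 34282, 32306, 35196 and 35239 in DKO 1 to DKO 4. The groups did not overlap, and the lowest WT value was that of WT 4. Its mean rose from 23864 ± 2122 to 34256 ± 1373 (SD, n = 4 each), which is a log2 fold change of 0.52 (standard error, SE, 0.08; adjusted p = 0.00439 in edgeR). Of the 7 hosts that rose it had the highest level per kilobase of exon and the smallest fold change. It made up between 57.6% and 60.6% of all counts of the 8 hosts in WT and between 54.3% and 57.4% in DKO.

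Snhg1 (ENSMUSG00000108414.1, chromosome 19, 8723475 to 8726443, plus strand) is the host of 8 annotated snoRNA genes, Snord22 (U22), which takes part in 18S rRNA processing, among them. Its normalized counts were 2936, 3259, 3284 and 2356 in the WT libraries and 4446, 5002, 5600.2 and 5270.3 in the DKO libraries. DKO 1 was the lowest of its group and still 1.35 times the highest WT value. The log2 fold change was 0.78 (SE 0.12; adjusted p = 0.00416 in edgeR).

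Snhg5 (ENSMUSG00000097195.9, chromosome 9, 88521050 to 88522929, minus strand) holds the near-identical pair Snord50a and Snord50b. The WT libraries had 4411, 4422, 4378 and 3904 normalized counts and the DKO libraries 6533, 6577, 7744 and 6874. The WT libraries lay close together apart from WT 4, and every DKO value was at least 1.48 times the highest of them. The log2 fold change was 0.70 (SE 0.08; adjusted p = 0.00186 in edgeR).

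Snhg6 (ENSMUSG00000098234.7, chromosome 1, 9941959 to 9944118, minus strand) hosts Snord87 alone and was the most even of the 8 within a genotype. Its counts were 2071, 2277, 2287 and 2169.9 in WT and 3669, 3415, 3528 and 3519 in DKO, which is a coefficient of variation of 4.62% and 2.95%. The mean rose from 2201 ± 102 to 3533 ± 104 (SD, n = 4 each), which is a log2 fold change of 0.68 (SE 0.07; adjusted p = 0.00115 in edgeR).

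Zfas1 (ENSMUSG00000074578.13, chromosome 2, 167062934 to 167065862, plus strand), an RNA that begins beside the start of Znfx1 on the other strand, hosts 3 members of the Snord12 family. Its normalized counts rose from 3145, 3394, 3391 and 2607 to 6209, 5588, 6093 and 5888. Its mean went from 3134 ± 371 to 5944 ± 272 (SD, n = 4 each), or 1.90-fold, with a log2 fold change of 0.92 (SE 0.10; adjusted p = 0.00115 in edgeR). Every DKO library had at least 1.65 times the highest WT value.

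The hosts of box H/ACA snoRNAs were Snhg8, Snhg12 and Snhg3. Snhg8 (ENSMUSG00000104960.1, chromosome 3, 123507552 to 123508404, minus strand), the host of Snora24, was at 1084, 1422, 1367 and 1146 normalized counts (WT) and 1874, 2113, 2041 and 1698 (DKO). Its groups were the closest of the 7, with the lowest DKO value 1.19 times the highest WT value, and its log2 fold change was 0.62 (SE 0.12; adjusted p = 0.00904 in edgeR).

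Snhg12 (ENSMUSG00000086290.8, chromosome 4, 132308623 to 132311024, plus strand) carries Snora16a, Snora44, Snora61 and the box C/D snoRNA Snord99. It had the lowest level per kilobase of exon and the largest fold change of the 8, rising from 578, 676, 696 and 474 normalized counts in WT to 1267, 1320.5, 1380 and 1358 in DKO. The means were 606 ± 102 and 1331 ± 49.3 (SD, n = 4 each), which is a log2 fold change of 1.14 (SE 0.14; adjusted p = 0.00208 in edgeR). The DKO libraries lay within a narrow band, and the lowest was 1.82 times the highest WT value. The exact permutation test gave p = 0.0286, two-sided, for each of the 7 genes, the smallest that 70 arrangements of 4 against 4 allow.

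Snhg3 (ENSMUSG00000085241.7, chromosome 4, 132348014 to 132353686, minus strand) hosts Snora73a and Snora73b (U17), which function in cleavage of the ribosomal RNA precursor rather than in its modification. Its normalized counts were 1852.5, 1879.6, 2415 and 2114 in WT and 2481, 2465, 3237 and 1589 in DKO. The highest and the lowest of the 8 libraries were both DKO, and the groups overlapped. The means were 2065 ± 261 and 2443 ± 673 (SD, n = 4 each), which is a log2 fold change of 0.24 (SE 0.19; adjusted p = 0.402 in edgeR) and an exact permutation p of 0.371. Without DKO 4 the log2 fold change was 0.40 (adjusted p = 0.0757, edgeR) and without DKO 3 it was 0.08 (adjusted p = 0.774, edgeR). Snhg3 shares its strand and part of its span with Rcc1, which encodes the nucleotide exchange factor of Ran, and lies opposite the noncoding gene Gm17300. Rcc1 averaged 7294 ± 458 (WT) and 5397 ± 1149 (DKO), without overlap of the groups and with a log2 fold change of -0.43 (adjusted p = 0.0602, edgeR). Gm17300 went the other way, from 2978 ± 309 to 4139 ± 835 (log2 fold change 0.47, adjusted p = 0.0425, edgeR). Whether reads were counted by strand is not given in the sources used here, so the counts of these 3 genes are uncertain.

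Genes that overlap the other hosts on the opposite strand did not pass the test. Zbtb37, opposite to Gas5, had a log2 fold change of 0.47 (adjusted p = 0.24, edgeR) at 230 ± 52.9 normalized counts in WT. Mcmdc2, opposite to Snhg6, had 49.2 ± 20.9 and 40.3 ± 19.8. Znfx1, opposite to Zfas1, had 399.8 ± 79.6 and 498 ± 112 (log2 fold change 0.32, adjusted p = 0.342, edgeR). Slc3a2, the heavy chain of a plasma membrane amino acid transporter, starts 106 bases from Snhg1 and is transcribed away from it. It rose from 9226 ± 438 to 14952 ± 3946 (log2 fold change 0.70, adjusted p = 0.0197, edgeR), with every DKO library above every WT library.

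Compared per kilobase of exon, the hosts spanned a wide range of levels. In WT the order of the mean normalized counts per kilobase was Gas5 (6347), Snhg5 (2473), Snhg3 (2095), Snhg6 (1921), Snhg8 (1471), Zfas1 (1070.1), Snhg1 (997) and Snhg12 (252). Ranges over the 4 libraries overlapped for Snhg5 and Snhg3, for Snhg3 and Snhg6, and for Zfas1 and Snhg1, so that these neighbours did not differ beyond their spread. In DKO the levels per kilobase were Gas5 (9111), Snhg5 (4007), Snhg6 (3083), Snhg3 (2478), Snhg8 (2265), Zfas1 (2029.5), Snhg1 (1711) and Snhg12 (554), and ranges overlapped between each neighbouring pair from Snhg6 to Zfas1. The exon length depends on annotated isoforms that retain introns. With the median transcript length in its place, Gas5 (37940 normalized counts per kilobase in WT) was again first and Snhg12 (662) last, while Snhg1 (4911) moved up past Snhg3, Snhg6, Snhg8 and Zfas1, with a range that overlapped those of Snhg5, Snhg3, Zfas1 and Snhg6.

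Together the 8 hosts took between 0.0805% and 0.0998% of all counts in the WT libraries and between 0.131% and 0.147% in the DKO libraries. Relative to the WT mean, the median log2 difference of the 8 was 0.60, 0.69, 0.78 and 0.68 in DKO 1 to DKO 4, and between -0.16 and 0.12 in WT. DKO 3, the library with Ddx3y counts, had the highest of these medians. Mesenchyme markers were highest in DKO 1, where Col1a1 reached 13055 normalized counts. This library had the lowest median of the 4 for the 8 hosts but the highest for the 13 other noncoding hosts (0.76, against 0.61, 0.58 and 0.65 in DKO 2 to DKO 4). The part of these cells in the result was not tested.

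Within a genotype the hosts tended to vary together. After the mean of each genotype was removed, 27 of the 28 pairs had a positive Pearson's r over the 8 libraries, with a median of 0.51, from -0.18 for Gas5 and Snhg3 to 0.93 for Snhg1 and Snhg12. Snhg3 was the least alike, with r = 0.19 to the mean of the other hosts, against 0.44 to 0.79 for the rest. The pairs share libraries and their scaling, and these values are a description only. How often pairs of other genes have a positive r was not computed, so nothing particular to the hosts is drawn from this count. Among 12331 other genes with at least 100 normalized counts, those closest to the mean of the hosts by the same measure were the ribosomal protein pseudogene Rpsa-ps10 (r = 0.97), the splicing factor gene Sart1 (0.95), the transcription elongation kinase gene Cdk9 (0.95), the transcription factor gene Maz (0.94) and the pseudogene Gm8960 (0.94).

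The snoRNAs themselves could hardly be measured. Of the 32 genes inside the hosts, 23 were listed at exactly 1 in all 8 libraries, and 28 had at most 5 counts in each. Among all 1558 snoRNA and scaRNA genes of the annotation, 92 were listed at 1 throughout. The counting works back from coverage and rounds up, so a listed 1 need not be a read. Mature snoRNAs are short and have no poly(A) tail. The samples are labelled as poly(A) RNA, while the methods describe purification of total RNA and cDNA made by template switching. Snord87, in Snhg6, had raw counts of 35, 33, 30 and 34 in WT and 75, 38, 32 and 26 in DKO. Only DKO 1 stood apart, and the log2 fold change of 0.65 did not pass the test (adjusted p = 0.341, edgeR). Snora73b, in Snhg3, had raw counts between 84 and 87 in WT and between 79 and 108 in DKO, with a log2 fold change of 0.37 (adjusted p = 0.424, edgeR). Snhg3 itself did not pass, and Snord87 had few counts and a wide error (SE 0.45). Whether the snoRNAs changed alongside their hosts could therefore not be told from these libraries. What limits their counts was not tested.

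Noncoding hosts outside the 8 were examined next. Of 15 further hosts listed, 13 were tested (Snhg4 and Snhg7 were not matched), and 8 rose and 0 fell, with a median log2 fold change of 0.69. The 8 were Snhg9 (log2 fold change 1.27), Snhg10 (0.89), 2410006H16Rik (0.88), Snhg20 (0.82), 1110038B12Rik (0.69), Epb41l4aos (0.59), Snhg15 (0.56) and Snhg17 (0.54), with edgeR adjusted p-values from 0.000935 to 0.0349. 2410006H16Rik had the most counts of these 8 and rose from 3099.6 ± 194 to 5718 ± 548 normalized counts (SD, n = 4 each). Snhg18 had a log2 fold change of 1.24 at an edgeR adjusted p of 0.0505. Those of Snhg14 (0.73), Dancr (0.50), Snhg11 (0.27) and 1810032O08Rik (0.07), the last also known as Snhg16, did not pass either.

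**Figure D2:**
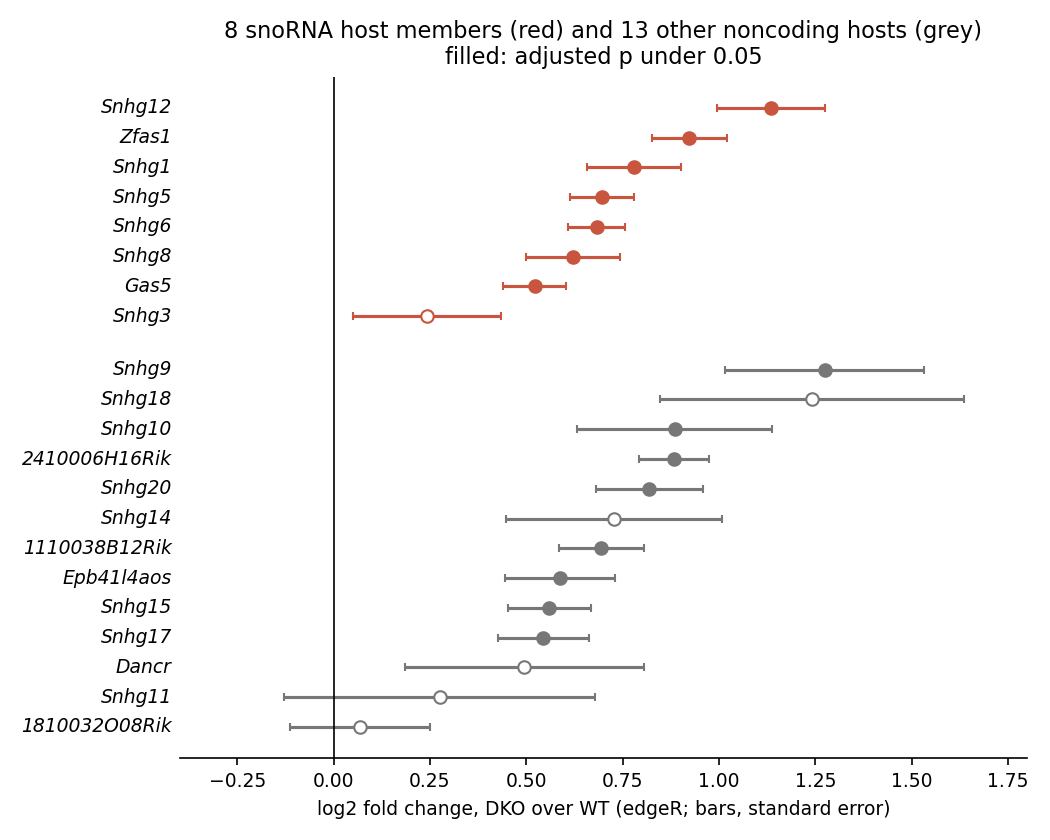
Log2 fold change, DKO over WT, with its standard error (horizontal axis), for the 8 snoRNA host RNAs (red) and the 13 other noncoding hosts tested (grey), filled where the adjusted p was under 0.05. All 21 points lie to the right of 0, from 0.07 for 1810032O08Rik to 1.27 for Snhg9, and 15 are filled.

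Protein-coding genes that hold a snoRNA gene in their span split evenly, with 41 higher and 41 lower of 240 tested. Their median log2 fold change was 0.04. Each share was 17.08%, against 11.22% higher and 12.99% lower over all 14053 protein-coding genes tested. Among the 240, 21 of 30 ribosomal protein genes rose and 0 fell (median 0.38). The other 210 gave 20 higher (9.52%) and 41 lower (19.52%), with a median of -0.01. The 3 of these 210 with the most counts were Hspa8, the constitutive Hsc70 chaperone, which fell (log2 fold change -0.72, adjusted p = 0.033, edgeR), and Ncl (-0.02) and Eif4a1 (-0.19), which did not pass.

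Of 12 tested long noncoding RNAs listed as hosting no snoRNA, 2 rose and 2 fell. Malat1, a nuclear speckle RNA, was one that rose (log2 fold change 0.75, adjusted p = 0.0278, edgeR), while the imprinted RNAs H19 (0.43) and Meg3 (0.05) did not pass. Over all other long noncoding RNA genes in the annotation, 8.88% of 1464 were higher and 2.12% lower, with a median of 0.30.

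Ribosomal protein genes, the best known TOP mRNAs, were compared with the hosts because many host RNAs are described as beginning with such a tract too. The search above found one within 20 bases of the start in 5 of 7 hosts, against 52.2% of all genes, and does not establish a shared feature. Of 83 ribosomal protein genes tested, 64 rose and 0 fell, with a median log2 fold change of 0.41. Rpl32 rose from 94682 ± 5734 to 118660 ± 6116 normalized counts (log2 fold change 0.33, adjusted p = 0.0157, edgeR), and Rpl4 (0.17) and Rplp0 (0.16), with still more counts, did not pass. TOP mRNAs of translation factors were mixed, with 6 higher and 2 lower of 20 and a median of 0.13. Eef1a1 (-0.08) and Npm1 (0.12) did not pass and Pabpc1, the cytoplasmic poly(A) binding protein, fell (log2 fold change -0.59, adjusted p = 0.00476, edgeR).

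**Figure D3:**
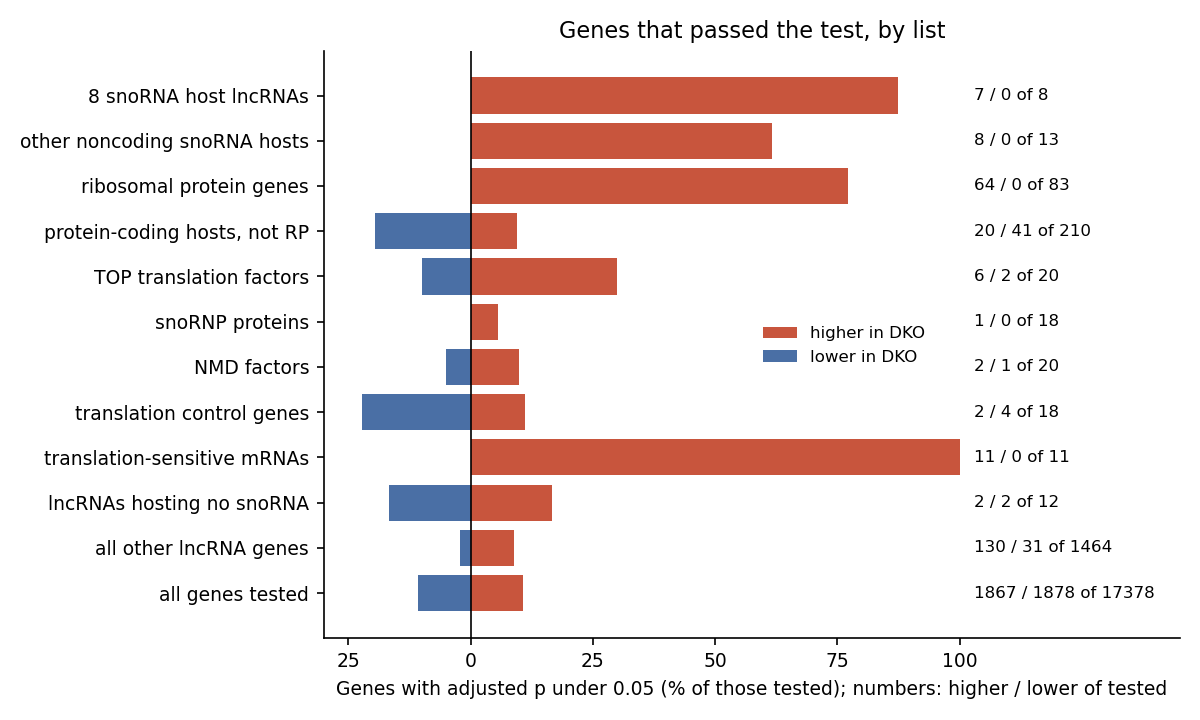
Share of tested genes with an adjusted p under 0.05 (horizontal axis, %), higher in DKO to the right in red and lower to the left in blue, for each list. The 8 hosts (87.5%), the other noncoding hosts (61.5%), the ribosomal protein genes (77.1%) and the translation-sensitive mRNAs (100%) show red bars only, as do the snoRNP proteins (5.56%). Apart from the snoRNP proteins, these lists stand well above all genes tested (10.7% higher, 10.8% lower). All lists were chosen with earlier results of these data known.

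To see whether the hosts changed beyond ribosomal protein mRNA, each was also expressed per 1000000 counts of the 83 ribosomal protein genes in the same library, a scale chosen after the data were seen. Those genes took between 6.74% and 7.98% of all counts in WT and between 8.98% and 10.1% in DKO. On this scale 5 of the 8 hosts (Snhg1, Snhg5, Snhg6, Snhg12 and Zfas1) still had every DKO library above every WT library (exact permutation p = 0.0286 each), as did 5.94% of all genes. Snhg12 went from 186 ± 20.05 to 317 ± 20.7 and Zfas1 from 965 ± 65.6 to 1422 ± 177 (SD, n = 4 each). Gas5 overlapped, at 7364 ± 515 and 8181 ± 856 (exact permutation p = 0.171), and so did Snhg8 at 386 ± 35.3 and 459 ± 39.8 (p = 0.0571). Snhg3 was the one host with a lower mean in DKO, 637 ± 69.9 against 579 ± 144 (exact permutation p = 0.457).

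**Figure D4:**
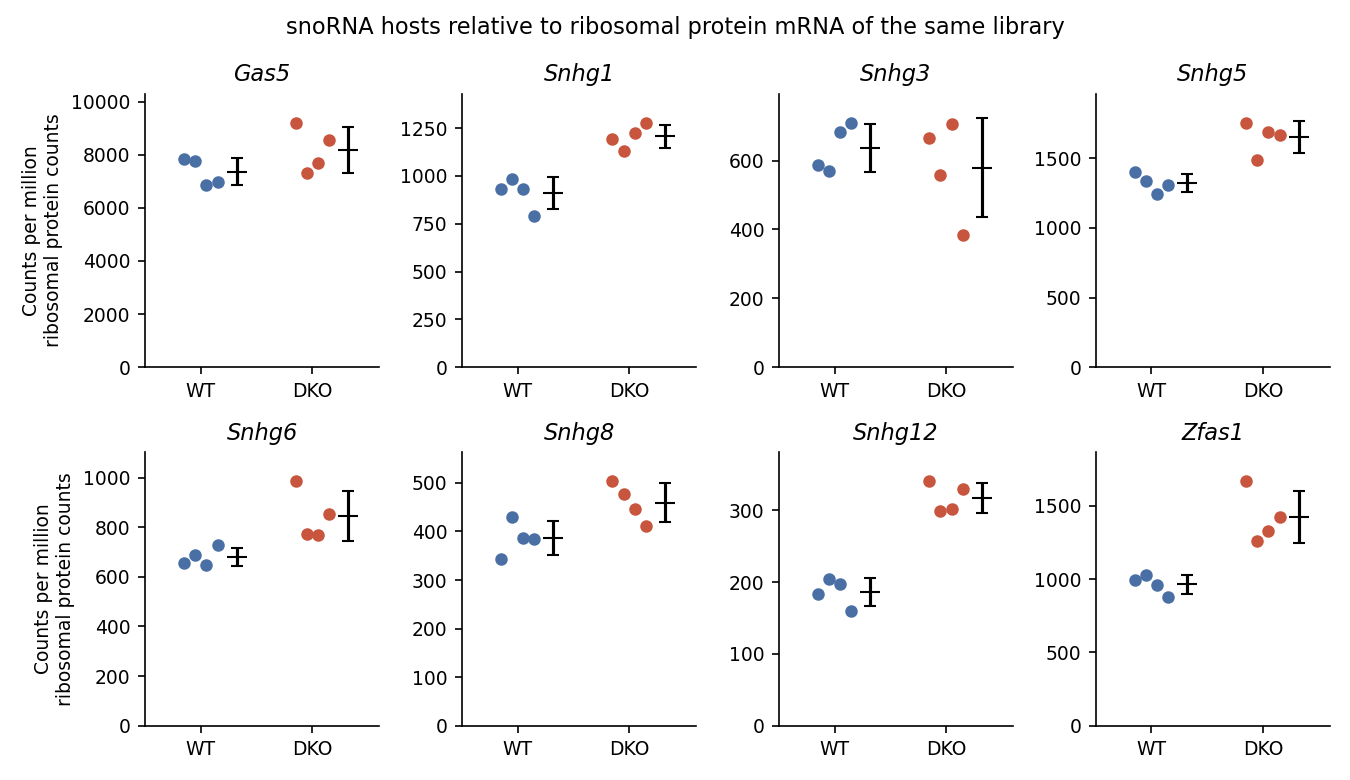
Counts of the 8 hosts per 1000000 ribosomal protein counts of the same library (vertical axes, linear from 0), for 4 WT (blue) and 4 DKO (red) libraries with mean and SD in black. The groups stay apart for Snhg1, Snhg5, Snhg6, Snhg12 and Zfas1, and overlap for Gas5, Snhg3 and Snhg8.

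The machinery around the hosts was read against the shares over all genes (10.7% higher, 10.8% lower). Of 18 tested core and assembly proteins of snoRNPs, the particles that mature snoRNAs form, 1 rose (5.56%) and 0 fell (median log2 fold change 0.01). Nop56 (0.23), Nop58 (-0.01) and Nop10 (0.01), those with the most counts, did not pass. Of 20 factors of nonsense-mediated decay 2 rose (10%) and 1 fell (5%), with a median of 0.05, and those with the most counts, Eif4a3 (-0.09), Rbm8a (0.22) and Rnps1 (-0.30), did not pass.

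A further list held 11 mRNAs known to accumulate under the integrated stress response or when translation is slowed, chosen with earlier results of these data known. All 11 rose, with a median log2 fold change of 1.503. Asns, asparagine synthetase, rose from 10758 ± 905 to 19106 ± 4967 normalized counts (log2 fold change 0.83, adjusted p = 0.011, edgeR). Atf4, the central transcription factor of that response, rose from 4853 ± 519 to 10294 ± 2286 (log2 fold change 1.08, adjusted p = 0.00346, edgeR), and Ppp1r15a, which directs dephosphorylation of eIF2α, from 2093 ± 154 to 4763 ± 2711 (log2 fold change 1.19, adjusted p = 0.0253, edgeR). Relative to the WT mean, the median log2 difference of these 11 was highest in DKO 4 (2.16) and lowest in DKO 3 (1.06). The medians of the hosts were between 0.60 and 0.78 over the DKO libraries, and a link between these lists was not tested. Of 18 genes that control translation, 2 rose (11.1%) and 4 fell (22.2%), against 10.7% and 10.8% of all genes (median -0.10). Eif4ebp1, an inhibitor of the cap-binding protein, rose (log2 fold change 1.01, adjusted p = 0.00531, edgeR), Eif4e, the cap-binding protein itself, fell (-0.37, adjusted p = 0.0176, edgeR), and Eif2s1 (-0.06) did not pass.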

How the data were processed

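The authors trimmed reads with fastp 0.21.0, mapped them to mm10 with HISAT2 2.2.1, removed alignments of low mapping quality and deposited raw counts per gene made with StringTie 1.3.3b and prepDE. The counts were not normalized or pooled. Columns were matched to samples by name. Symbols and coordinates came from GENCODE M21 (GRCm38), which matched 52489 of 52636 identifiers. The genotypes were compared in R 4.3.3 with edgeR 4.0.16 (filterByExpr, TMM scaling, robust quasi-likelihood test, Benjamini-Hochberg adjustment over 17378 genes). Normalized counts were scaled to the mean effective library size. Exact permutation tests on log2 CPM were two-sided over 70 arrangements, and per-library medians used a pseudocount of 1. The steps were tested on simulated data with a coefficient of variation between libraries of 0.2. Of 100 genes changed by a log2 fold change of 0.7 in either direction, 43 were recovered, and of 100 changed by 1.5, 100. In the simulation far fewer genes changed than passed here, and all had the same variation. These shares need not hold for the data, and a gene that did not pass may still have changed. Named genes were the 8 hosts, the other noncoding hosts, the 3 genes of each other list with the highest mean normalized counts, the 5 genes most like the hosts, and genes overlapping or beside them. The hosts and all lists were chosen with earlier results of these data known. Alternatives were DESeq2 1.42.0, other scalings and filters, a replicate block, a covariate for Ddx3y and each library left out. Litter and embryo records were not used here.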

Additional observations from a re-analysis of the deposited data

Results flagged for a closer look

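Among the 16 groups of 4 libraries formed by the 8 hosts and the genotypes, 1 held a library far from the others. For Snhg5, WT 4 had 3904 normalized counts, and its gap to the nearest WT library was 0.916 of the whole range of the group. Chance marks about 1 in 20 such groups.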

How the results depend on the processing

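The count of hosts that rose was 7 under every alternative except the covariate for Ddx3y, where it was 6, and it was 7 with each library left out in turn. None fell under any alternative run. With each library left out the median log2 fold change of the hosts was 0.66 to 0.71, and the counts over all genes were 858 to 1915 higher and 898 to 2012 lower, against 1867 and 1878. The falls of over 1.5 times came without WT 1 (858 and 898), WT 2 (1011 and 1050.0) or WT 4 (948 and 957). With the Ddx3y covariate the all-gene counts were 476 and 618 and the median of the hosts 0.78. Upper-quartile scaling gave a median of 0.80, 2 hosts beyond a log2 fold change of 1 (Zfas1 at 1.03 beside Snhg12) and 1242 genes lower, and it moved the median of all genes to 0.14 and the share of higher genes among those that passed from 49.9% to 66.7%. Without a filter on low counts the median of all genes was 0.13. With the replicate block 1026 genes were higher and 1083 lower and 7 hosts rose. The replicate numbers did not pair the libraries (r = -0.10, 0.05, -0.03 and -0.01 for the 4 numbers). Per 1000000 ribosomal protein counts, the median of the hosts was 0.32 and the log2 ratio of Snhg3 turned to -0.14. On that scale 5 hosts, in place of 7, had every DKO library above every WT library, and Gas5 and Snhg8 overlapped. DESeq2 called 7 hosts higher, with 2516 genes higher and 2393 lower. The causes were not tested. The hosts had 474 normalized counts or more in every library.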
